A study of Mus musculus with 16 samples.

Results

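The genes described here carry fatty acids into mitochondrial oxidation: they activate the acid to its coenzyme A ester, move the acyl group across the mitochondrial membranes on carnitine, shorten it step by step, hand the electrons to the respiratory chain, and split acyl-CoA again. They were chosen by name, 37 genes in all, of which 36 had a value among the 15350 genes of the deposited tables. Expression of Acsl6 was not analysed here. Brown adipose tissue from between the shoulder blades of C57BL/6J mice was profiled by sequencing of poly(A) RNA. The 4 groups had 4 libraries each: Ucp1-knockout (Ucp1-/-) mice infused with isoproterenol (KO isoproterenol), Ucp1-knockout mice infused with saline (KO saline), wild-type mice infused with isoproterenol (WT isoproterenol) and wild-type mice infused with saline (WT saline). Isoproterenol, an agonist of beta-adrenergic receptors that activates brown fat, was given at 60 mg/kg/day for 3 days by implanted minipumps, and the saline mice carried minipumps too. The labels give no age, and do not say whether a library came from 1 animal or a pool, so that p-values measure the spread between these libraries, which may in part be technical. The knockout is a whole-animal label, and the deleted part of Ucp1 is not given in the sources used here.

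Brown adipocytes burn fatty acids to make heat through Ucp1, a mitochondrial carrier that lets protons back across the inner membrane. Acyl-CoA synthetases trap fatty acids inside the cell, and the carnitine palmitoyltransferases of the outer and inner membrane set how fast long chains enter the matrix. Each turn of the oxidation spiral then runs through an acyl-CoA dehydrogenase, a hydratase, a hydroxyacyl-CoA dehydrogenase and a thiolase, while thioesterases release free fatty acid and coenzyme A.

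Levels are given as CPM, read counts scaled to the size of the library, taken as 2 to the power of the deposited log2 values. These hold 0.5 read added to each count, and libraries of one group are listed in the order of their replicate numbers. The libraries held 9004515 to 20986735 reads over the listed genes, and 1 read was worth between 0.0476 and 0.115 CPM. Ucp1 had 18.96, 268, 848 and 2129 CPM in the KO isoproterenol libraries, 1118, 588, 1156 and 409.8 CPM in the KO saline libraries, 8905, 11662, 17655 and 18458 CPM in the WT isoproterenol libraries and 2298, 3449, 3219.7 and 3339 CPM in the WT saline libraries. Within each treatment every KO library was below every WT library, and reads from parts of the gene outside the deletion would still be counted. The 4 KO isoproterenol libraries stood apart from the other 12 on the first principal component, which held 50.3% of the variance, and they differed among themselves more than the libraries of any other group. Over the 36 oxidation genes the highest library of a group exceeded the lowest by a median of 12.6-fold in KO isoproterenol, 1.36-fold in KO saline, 1.41-fold in WT isoproterenol and 1.43-fold in WT saline. KO isoproterenol replicate 1 was the lowest of its group for 33 of the 36 genes, and replicate 4 was the highest for 33. In whole tissue, fewer brown adipocytes and less RNA per brown adipocyte cannot be told apart.

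The summed level of the 36 genes was most uneven within the KO isoproterenol group. It was 2689.5, 8208, 15067 and 33262 CPM in the KO isoproterenol libraries, 32427, 36258, 31738 and 32826 CPM in the KO saline libraries, 36566, 34458, 43599.8 and 49662 CPM in the WT isoproterenol libraries and 23452, 32677, 32368 and 29320.2 CPM in the WT saline libraries. KO isoproterenol replicates 1 to 3 lay below the other 13 libraries, and replicate 4 lay inside the range of KO saline. WT isoproterenol libraries lay above all 4 WT saline libraries.

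**Figure D1:**
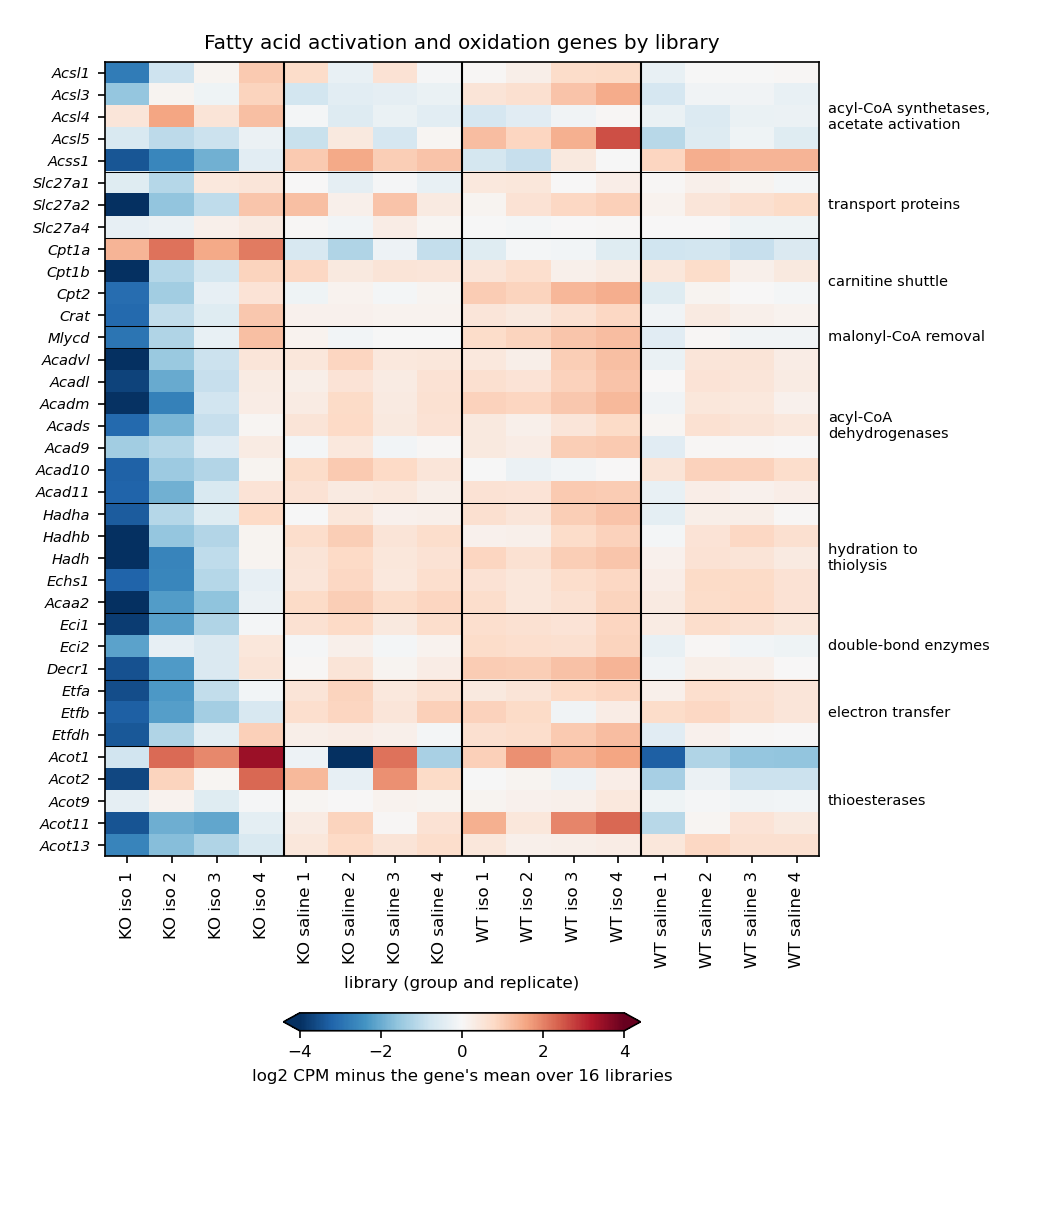
Log2 CPM of the 36 genes in each library, minus the gene's mean over the 16 libraries, with genes in rows by role and libraries in columns by group. Most genes are lowest in KO isoproterenol replicate 1 and highest of that group in replicate 4, while Cpt1a and Acsl4 are raised in all 4 libraries of that group.

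A linear model of the 4 groups was fitted to all 15350 genes with limma, and a gene was called at a Benjamini-Hochberg adjusted p under 0.05. In knockout brown fat under isoproterenol 19 of the 36 genes fell and 2 rose, Cpt1a and Acsl4, with a median log2 fold change of -1.70. Across all genes 24.8% were called lower and 23.8% higher in that comparison, with a median near 0. Without KO isoproterenol replicate 1 the counts were 18 lower and 4 higher, beside 23.3% and 22.0% of all genes, and the median log2 fold change of the oxidation genes was -0.94. With the spread taken from the 8 KO libraries alone the counts were 12 lower and 2 higher, beside 17.5% and 16.3% of all genes. For 13 genes the highest KO isoproterenol library was below the lowest KO saline library, against 19.3% of all genes.

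Wild-type brown fat gave estimates above 0 for 31 of the 36 genes under isoproterenol, with a median log2 fold change of 0.46, but 2 were called higher, Acsl5 and Acsl3, and 1 lower, Acss1. Of all genes, 7.6% were called higher and 8.98% lower, with a median of -0.02. With the spread taken from the 8 WT libraries alone, 19 genes were called higher and 3 lower, beside 16.3% and 15.8% of all genes. The fit over 16 libraries takes its spread from all 4 groups, the uneven KO isoproterenol group included. WT isoproterenol and WT saline did not overlap for 19 genes that were higher under isoproterenol, against 16.3% of all genes. Same-numbered WT libraries deviated together, and with that pairing as a block in the WT libraries 1 gene was called higher and 0 lower. The count of 2 higher became 8 without KO isoproterenol replicate 1, 7 without KO isoproterenol replicate 4, and 1 without WT isoproterenol replicate 3 or 4 or any of the 4 WT saline libraries. For the block and the fits that left out 1 library, the share of all genes called higher or lower in WT is not given here.

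Between the genotypes, saline libraries gave no call among the oxidation genes. The limma fit found 0 higher and 0 lower, also 0 at an unadjusted p under 0.05, with a median log2 fold change of 0.17, and 0.0717% and 0.0261% of all genes were called. With the 8 saline libraries alone there were again 0 calls and 2 genes at an unadjusted p under 0.05, and with weights for library quality 1 gene was called higher. For these alternatives under saline the share of all genes called is not given here. Under isoproterenol 28 genes were lower in KO than in WT libraries and 2 were higher, Cpt1a and Acsl4, with a median of -1.87. Of all genes 23.1% were called lower and 21.6% higher. Without KO isoproterenol replicate 1 these counts were 26 and 2, beside 22.4% and 20.1% of all genes, with a median of -1.23, and with the 8 isoproterenol libraries alone they were 16 and 2, beside 16% and 14.2%. For 17 genes every KO isoproterenol library was below every WT isoproterenol library, against 18.3% of all genes.

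The response to isoproterenol itself differed between genotypes, tested as the KO response minus the WT response. It was lower for 18 genes and higher for 2, again Cpt1a and Acsl4, with a median of -2.04, beside 13.8% and 10.9% of all genes. Without KO isoproterenol replicate 1 it was lower for 20 and higher for 2, with a median of -1.34, beside 13.7% and 10.9%. The 18 became 30 without KO isoproterenol replicate 4 and 9 with the WT pairing as a block. With library totals in place of the deposited scaling, the median over the whole table shifted by 0.18 for the KO response, -0.11 for the WT response, 0.26 for KO against WT under isoproterenol and 0.29 for the difference of responses. This left 18, 25 and 17 genes called lower in the KO response, under isoproterenol and in the difference. For these alternatives, other than leaving out KO isoproterenol replicate 1, the share of all genes called is not given here. Whether the oxidation genes or the whole table changed cannot be read from those counts.

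**Figure D2:**
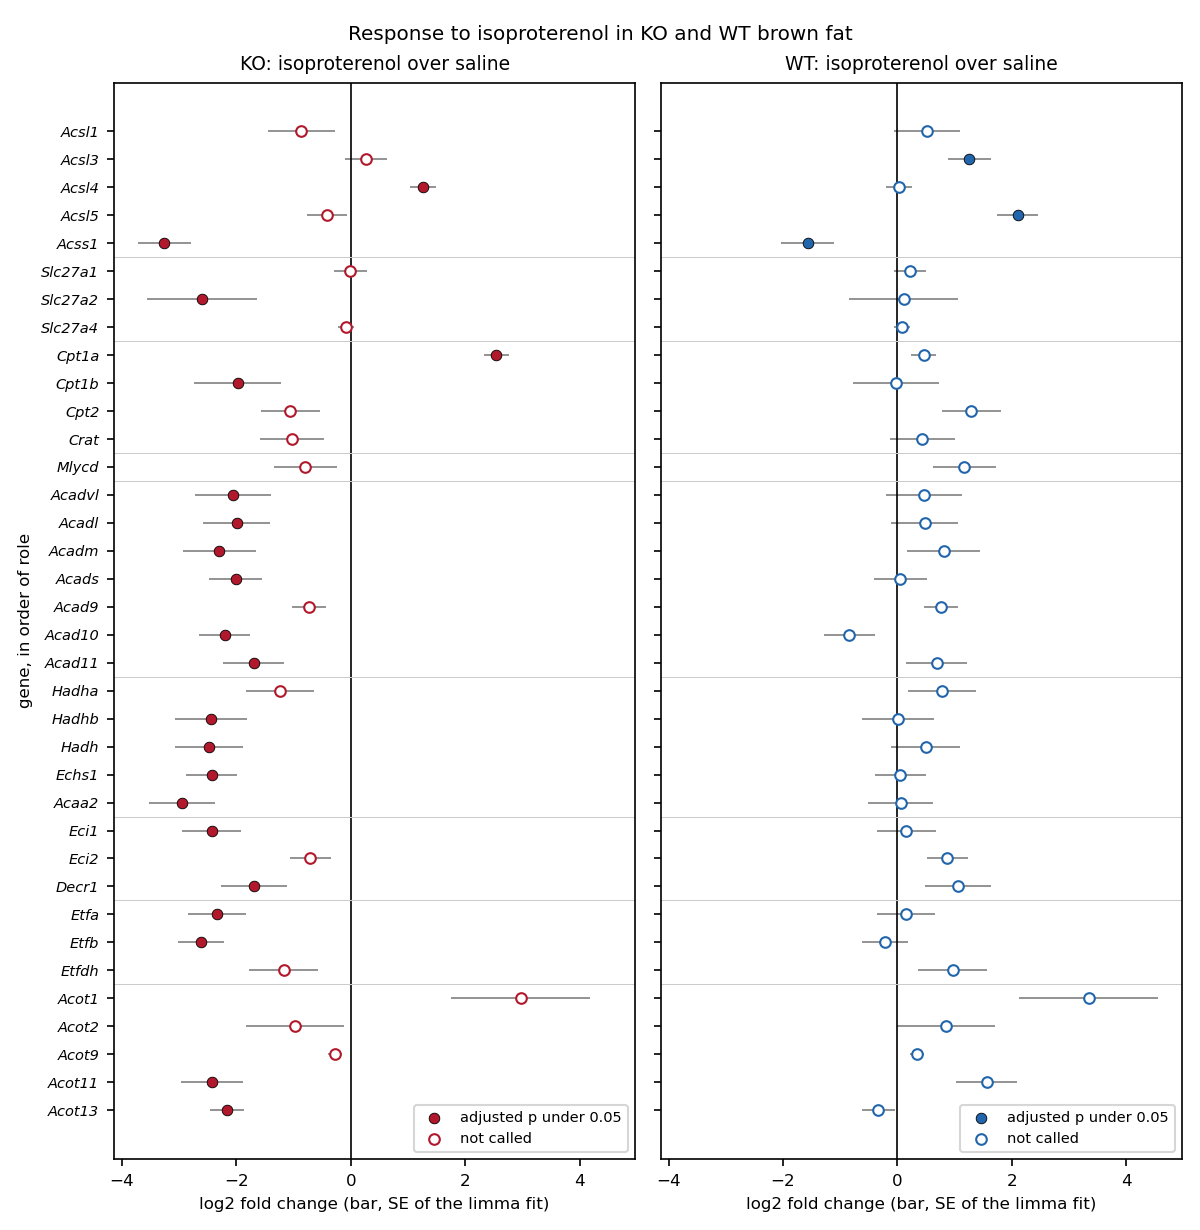
Log2 fold change under isoproterenol for each of the 36 genes in KO (left) and WT (right) libraries, with the standard error of the limma fit, and filled points where the adjusted p was under 0.05. Filled points lie left of 0 for 19 genes in KO, and in WT they are Acsl3, Acsl5 and Acss1.

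The enzymes that activate fatty acids did not move as one group. Acsl5, an acyl-CoA synthetase of the endoplasmic reticulum and mitochondrial outer membrane, rose in WT and not in KO libraries. It had 103, 74.7, 86.2 and 133 CPM in the KO isoproterenol libraries and 83.3, 205, 97.9 and 165 CPM in the KO saline libraries. Acsl5 had 369, 281, 421 and 928 CPM in the WT isoproterenol libraries and 72.1, 108, 138 and 111 CPM in the WT saline libraries. Every WT isoproterenol library was above the other 12 libraries, and the KO groups overlapped. The WT response was a log2 fold change 2.10, SE 0.35, limma adjusted p = 0.00125, and the KO response minus the WT response was -2.51, SE 0.50 with limma adjusted p = 0.0041.

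Acsl4, which prefers arachidonic acid, showed the opposite genotype pattern. It had 56.6, 120.3, 58.3 and 93.9 CPM in the KO isoproterenol libraries and 38.6, 28.3, 33.9 and 30.3 CPM in the KO saline libraries. Acsl4 had 25.4, 29.6, 37.1 and 41.8 CPM in the WT isoproterenol libraries and 33.6, 27.9, 33.5 and 34.7 CPM in the WT saline libraries. All 4 KO isoproterenol libraries were above the other 12, and the WT groups overlapped. Its KO response was a log2 fold change 1.26, SE 0.22, limma adjusted p = 0.000322, and the difference of responses was 1.24, SE 0.31 with limma adjusted p = 0.0121. Acsl4 is also made by macrophages and other immune cells, whose markers were raised in the same libraries, and the part of those cells in its level was not tested.

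Acsl1 is the main long-chain acyl-CoA synthetase of brown fat. It had 364, 1448, 2728 and 5285 CPM in the KO isoproterenol libraries and 4226, 2071, 3843 and 2489.9 CPM in the KO saline libraries. Acsl1 had 2649, 3015, 4242 and 4329.6 CPM in the WT isoproterenol libraries and 2082, 2521, 2532 and 2635 CPM in the WT saline libraries. KO isoproterenol replicate 1 was the lowest and replicate 4 the highest of all 16 libraries, so that the group spanned the others, and Acsl1 was not called in any comparison of the fit over 16 libraries, while the 8 WT libraries alone called its WT response higher (limma adjusted p = 0.0453). Acsl3, found on lipid droplets and the endoplasmic reticulum, had 34.8, 38.1, 53.1 and 68.2 CPM in WT isoproterenol libraries against 15.1, 22.2, 21.9 and 19.97 CPM in WT saline libraries, which did not overlap (log2 fold change 1.26, SE 0.37, limma adjusted p = 0.0301). In KO libraries Acsl3 spanned 8.35 to 44.7 CPM under isoproterenol and 14.6 to 20.3 CPM under saline, overlapping and not called. Without KO isoproterenol replicate 1 Acsl3 was called higher in KO too (log2 fold change 0.72, limma adjusted p = 0.0314). In that fit the difference of responses was not called (0.275). The WT call of Acsl3 was lost without WT isoproterenol replicate 3 or 4, without any 1 of the 4 WT saline libraries, and with the WT pairing as a block.

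Acss1, the mitochondrial enzyme that activates acetate, fell under isoproterenol in both genotypes. It had 15.2, 26.8, 42.97 and 123 CPM in the KO isoproterenol libraries and 336, 464, 322 and 359 CPM in the KO saline libraries. Acss1 had 99.7, 87.1, 215 and 162 CPM in the WT isoproterenol libraries and 295, 449.6, 416 and 419.5 CPM in the WT saline libraries. In each genotype the isoproterenol libraries lay below the saline libraries. The KO response was a log2 fold change -3.26, SE 0.47, limma adjusted p = 6.7e-05 and the WT response a log2 fold change -1.57, SE 0.47, limma adjusted p = 0.032, and the difference of responses was not called, at -1.69, SE 0.66 with limma adjusted p = 0.0715. The WT call was lost without WT isoproterenol replicate 1, 2 or 4 or WT saline replicate 2, 3 or 4, with the WT pairing as a block and with voom weights.

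Of the 3 fatty acid transport proteins, which carry acyl-CoA synthetase activity at membranes, Slc27a2 was called and the other two were not. Slc27a2 had 3.31, 69.2, 101 and 443 CPM in the KO isoproterenol libraries and 477, 238, 452 and 265 CPM in the KO saline libraries. Slc27a2 had 222, 309, 367 and 395 CPM in the WT isoproterenol libraries and 228, 285, 319.8 and 353 CPM in the WT saline libraries. KO isoproterenol replicates 1 to 3 were below all KO saline libraries and replicate 4 lay among them (log2 fold change -2.60, SE 0.96, limma adjusted p = 0.0354). That call was lost without KO isoproterenol replicate 2 or KO saline replicate 1, 3 or 4, and with the WT pairing as a block (limma adjusted p = 0.0661). It was also lost with the 8 KO libraries alone (0.139). Slc27a1, the transporter of muscle and fat, spanned 153 to 475 CPM in KO isoproterenol libraries and 263 to 339 CPM in KO saline libraries. Slc27a4 was among the steadiest of the genes, with 41.5 to 68.0 CPM over the 16 libraries.

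**Figure D3:**
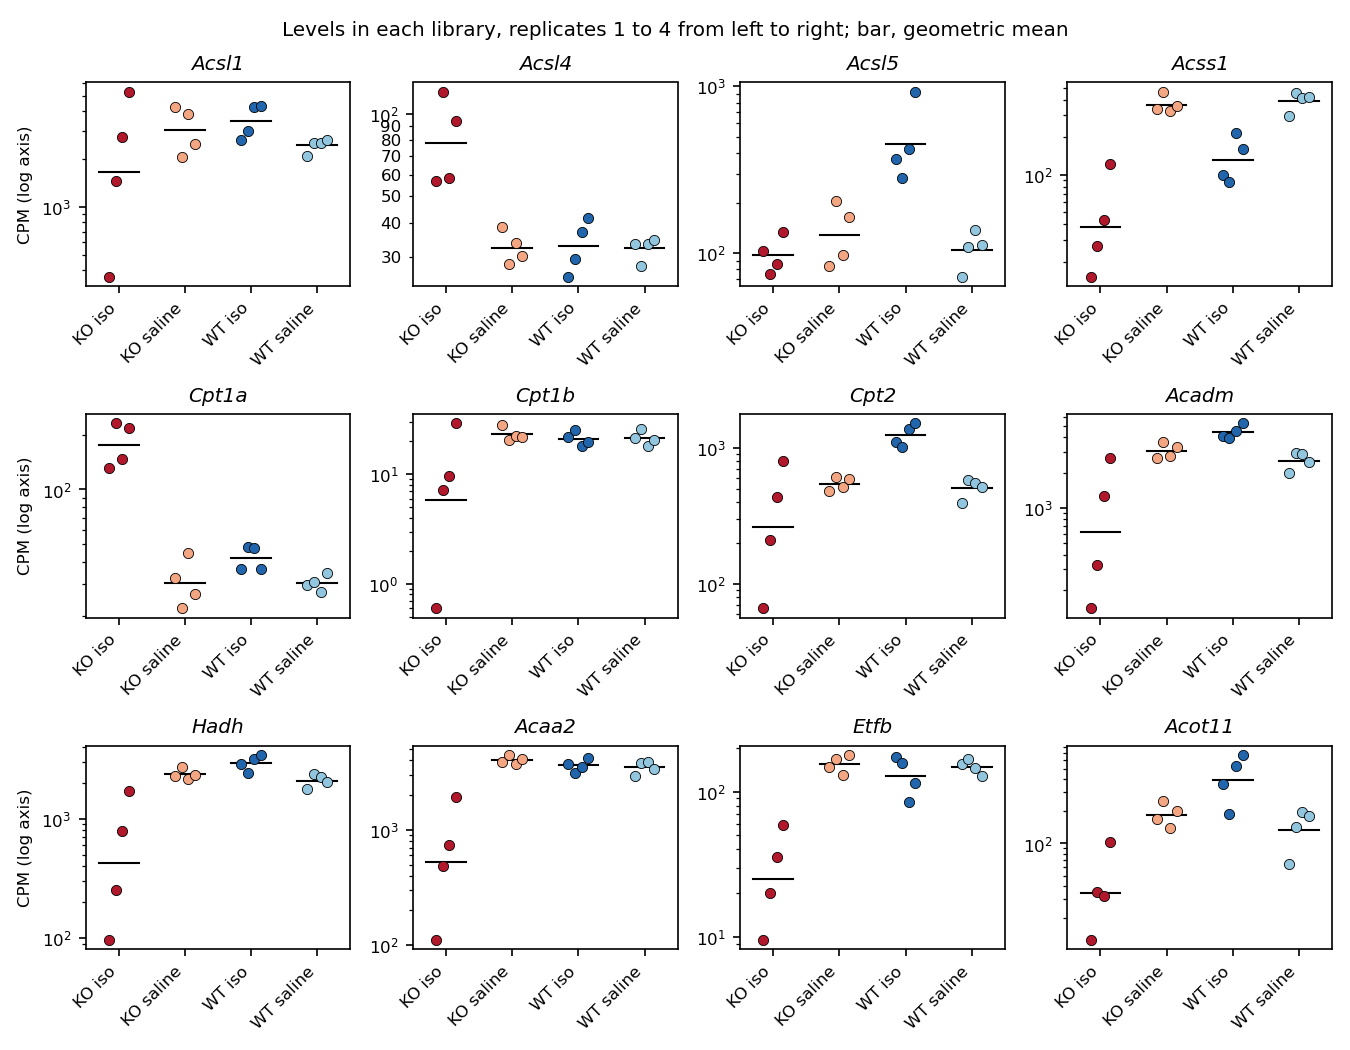
CPM on log axes for 12 of the genes in each library, in group order KO isoproterenol, KO saline, WT isoproterenol and WT saline, with replicates 1 to 4 from left to right and a bar at the geometric mean. Cpt1a and Acsl4 are raised in all 4 KO isoproterenol libraries, Acsl5 in all 4 WT isoproterenol libraries, and Acadm, Hadh and Acaa2 are lower in all 4 KO isoproterenol libraries than in KO saline.

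In the carnitine shuttle Cpt1a was called higher and Cpt1b lower in KO libraries under isoproterenol, the call for Cpt1b being lost in most fits that left out 1 library. Cpt1a, the isoform best known from liver, had 132, 232, 147 and 218 CPM in the KO isoproterenol libraries and 32.5, 22.03, 44.8 and 26.4 CPM in the KO saline libraries. Cpt1a had 36.3, 48.3, 47.7 and 36.5 CPM in the WT isoproterenol libraries and 29.5, 31.02, 27.2 and 34.6 CPM in the WT saline libraries. The lowest KO isoproterenol library was above the highest of the other 12 libraries, and WT isoproterenol was above WT saline without overlap. The KO response was a log2 fold change 2.54, SE 0.22, limma adjusted p = 9.04e-07, the WT response was not called (log2 fold change 0.46, SE 0.22, limma adjusted p = 0.171, and 0.0186 with the 8 WT libraries alone), and the difference of responses was 2.09, SE 0.31 with limma adjusted p = 0.000905.

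Cpt1b, the isoform of muscle and brown fat, had 0.595, 7.197, 9.59 and 29.1 CPM in the KO isoproterenol libraries and 28.01, 20.8, 22.4 and 22 CPM in the KO saline libraries. Cpt1b had 21.8, 25.2, 18.04 and 19.7 CPM in the WT isoproterenol libraries and 21.6, 25.9, 18.2 and 20.4 CPM in the WT saline libraries. KO isoproterenol replicates 1 to 3 were below the other 13 libraries, and replicate 4 was the highest of all. The KO response was a log2 fold change -1.98, SE 0.75, limma adjusted p = 0.0411, a call that held without KO isoproterenol replicate 1, 3 or 4 or WT isoproterenol replicate 2 and was lost in the other 12 fits that left out 1 library, with scaling by library totals, and with the WT pairing as a block (limma adjusted p = 0.0756). With the 8 KO libraries alone Cpt1b was not called either (limma adjusted p = 0.154). The ratio of Cpt1a to Cpt1b in CPM was 222, 32.2, 15.3 and 7.48 in the KO isoproterenol libraries, 1.16, 1.06, 2.002 and 1.198 in KO saline, 1.67, 1.91, 2.64 and 1.85 in WT isoproterenol and 1.37, 1.199, 1.496 and 1.697 in WT saline. The 222 rests on few reads, with Cpt1b at 0.595 CPM in KO isoproterenol replicate 1, where 1 read was worth 0.0476 CPM. An exact two-sided permutation test over libraries gave p = 0.0286 for the KO response and p = 0.0571 for the WT response of this ratio, where 0.0286 is the smallest p that 4 against 4 libraries allow, and 0.0571 and 0.0762 after adjustment over the 8 ratio comparisons made. The ratio is not set per length, so its change between libraries can be read and its size cannot. The 2 gene pairs set as ratios were chosen after the values had been seen. Of the 75-base stretches of the Cpt1b transcript 92.1% also lie in a read-through gene. Skeletal muscle also makes Cpt1b, and the summed level of 14 muscle markers spanned 21.3 to 783.5 CPM in KO isoproterenol and 92.7 to 953 CPM in KO saline libraries. Its part in the ratio was not tested.

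Cpt2, the inner-membrane transferase that hands the acyl group back to coenzyme A, had 65.8, 209, 432 and 803 CPM in the KO isoproterenol libraries and 484, 607, 513 and 591 CPM in the KO saline libraries. Cpt2 had 1102, 1018, 1379.5 and 1515 CPM in the WT isoproterenol libraries and 391, 584, 548 and 519 CPM in the WT saline libraries. WT isoproterenol libraries lay above the other 12, and KO isoproterenol replicate 4 alone of its group was above KO saline. Cpt2 was lower in KO than in WT under isoproterenol (log2 fold change -2.24, SE 0.52, limma adjusted p = 0.0028), while neither response was called and their difference was -2.35, SE 0.73 with limma adjusted p = 0.03, a call lost in 6 of the 16 fits that left out 1 library and with the WT pairing as a block (0.0637). The WT response of Cpt2 (log2 fold change 1.29) was called higher without KO isoproterenol replicate 1 (limma adjusted p = 0.00607), without replicate 4 (0.0312) and with the 8 WT libraries alone (0.000255). Crat, the acetyltransferase that buffers acetyl-CoA, had 131, 566, 804 and 2350.2 CPM in KO isoproterenol libraries against 1219.9 to 1270.3 CPM in KO saline libraries. Mlycd, which removes malonyl-CoA, the inhibitor of the outer transferase, had 17.5, 57.2, 106 and 305 CPM in KO isoproterenol, 144, 122, 129 and 129.7 CPM in KO saline, 220.1, 246, 283 and 309 CPM in WT isoproterenol and 95.4, 136, 118 and 120.3 CPM in WT saline libraries. Both spanned the saline range in KO isoproterenol, with replicate 4 on top, and were called lower in KO than in WT under isoproterenol (log2 fold change -1.45 for Crat and -1.80 for Mlycd, limma adjusted p = 0.0489 and 0.0159). The call for Crat held without KO isoproterenol replicate 4 and was lost in the other 15 fits that left out 1 library and with the WT pairing as a block (0.0889). With the 8 isoproterenol libraries alone neither Crat nor Mlycd was called (limma adjusted p = 0.171 and 0.0922).

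**Figure D4:**
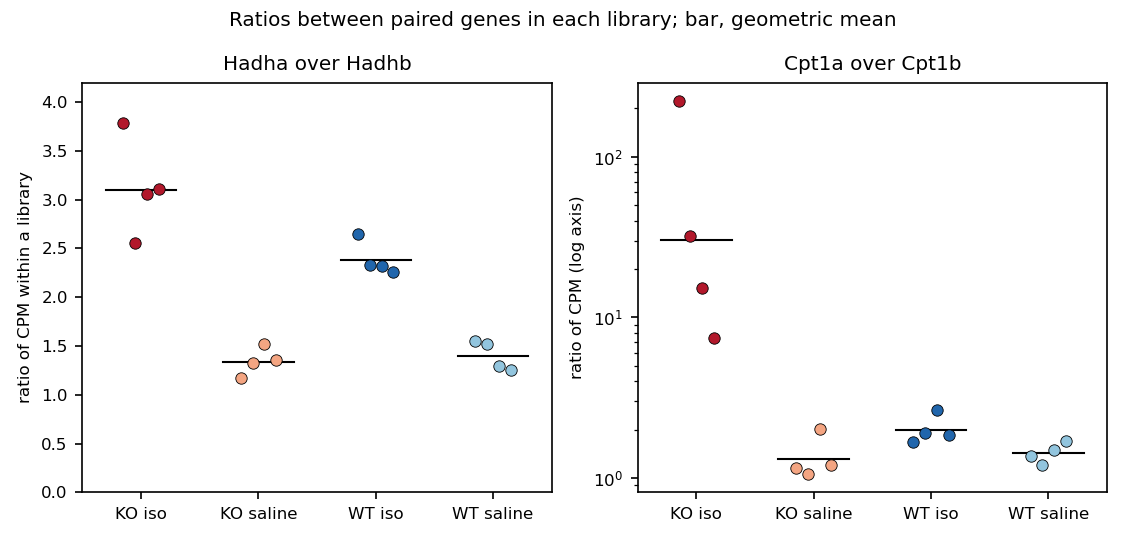
Ratio of Hadha to Hadhb (left, linear axis) and of Cpt1a to Cpt1b (right, log axis) in CPM in each library, by group with replicates 1 to 4 from left to right and a bar at the geometric mean. The Hadha to Hadhb ratio is above 2 in all 8 isoproterenol libraries and below 1.6 in all 8 saline libraries.

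Among the acyl-CoA dehydrogenases, which take the first electrons from chains of a given length, 6 of 7 fell in KO libraries under isoproterenol, beside 24.8% of all genes, and 0 of 7 were called in WT libraries. With the 8 KO libraries alone Acads and Acad10 were still called lower in KO (limma adjusted p = 0.0304 and 0.0217). Acadvl, Acadl, Acadm and Acad11 were then not called (0.0901, 0.0711, 0.0617 and 0.0849). With the 8 WT libraries alone Acadm, Acad9 and Acad11 were called higher in WT (limma adjusted p = 0.00355, 0.0111 and 0.00867) and Acad10 lower (0.00035). Without KO isoproterenol replicate 1 Acad9 was called higher and Acad10 lower (0.0434 and 0.0217). Acadm, the medium-chain enzyme, had 139.6, 330.5, 1278 and 2663 CPM in the KO isoproterenol libraries and 2699, 3676, 2769 and 3319 CPM in the KO saline libraries. Acadm had 4131, 3957, 4525 and 5269.7 CPM in the WT isoproterenol libraries and 1973, 2968, 2908 and 2450.2 CPM in the WT saline libraries. All 4 KO isoproterenol libraries lay below KO saline, and all 4 WT isoproterenol libraries above WT saline. Its KO response was a log2 fold change -2.30, SE 0.64, limma adjusted p = 0.00806, and with the 8 KO libraries alone SE 0.83 and 0.0617. For Acadm the difference of responses was -3.10, SE 0.90 with limma adjusted p = 0.0229, or 0.0545 with the WT pairing as a block. Acadvl, Acadl and Acads, for very long, long and short chains, had log2 fold changes of -2.05, -1.99 and -2.01 in KO libraries, and Acadl and Acadvl in KO isoproterenol replicate 4 reached the KO saline range. Acad10 and Acad11, related enzymes whose substrates are less well known, had -2.21 and -1.70. For Acad11 too, KO isoproterenol replicate 4 (309 CPM) lay in the KO saline range (249 to 315 CPM). Acad9, which also serves assembly of respiratory complex I, was not called in KO libraries (log2 fold change -0.73, SE 0.30, limma adjusted p = 0.0539), and had 23.8 to 78.6 CPM under isoproterenol and 58.01 to 83.6 CPM under saline. In WT libraries Acad10 had 71.2, 61.6, 66.3 and 73.1 CPM under isoproterenol and 102, 137, 136 and 116 CPM under saline, which did not overlap, lower under isoproterenol and not called (log2 fold change -0.84, SE 0.45, limma adjusted p = 0.222).

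The enzymes that follow, from hydration to thiolysis, had 4 of 5 genes that fell in KO libraries, beside 24.8% of all genes, with a median log2 fold change of -2.45 over the 5. Acaa2, the matrix thiolase, had 111, 482, 739.7 and 1925 CPM in the KO isoproterenol libraries and 3909.9, 4457, 3757 and 4087 CPM in the KO saline libraries. Acaa2 had 3737, 3131, 3483 and 4213 CPM in the WT isoproterenol libraries and 2937, 3800.3, 3911 and 3384 CPM in the WT saline libraries. KO isoproterenol replicate 4, the highest of its group, was below the other 12 libraries, and WT groups overlapped. The KO response was a log2 fold change -2.95, SE 0.58, limma adjusted p = 0.000755, and the difference of responses was -3.00, SE 0.81 with limma adjusted p = 0.017. Hadh, the hydroxyacyl-CoA dehydrogenase for medium and short chains, had 96.5, 252, 784 and 1701 CPM in KO isoproterenol, 2261, 2733, 2153 and 2342 CPM in KO saline, 2888, 2415, 3143 and 3411 CPM in WT isoproterenol and 1773, 2358, 2245 and 2012 CPM in WT saline libraries. Each KO isoproterenol library was below every other library, and the KO response was -2.48, SE 0.60 with limma adjusted p = 0.00345.

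Hadha and Hadhb encode the alpha and beta subunits of the trifunctional protein, which runs the last steps for long chains. Hadha had 206, 942, 1463 and 3614 CPM in the KO isoproterenol libraries, 2046, 2831, 2316 and 2363 CPM in the KO saline libraries, 3214, 2863, 4102 and 4569 CPM in the WT isoproterenol libraries and 1590.3, 2409, 2456 and 2119 CPM in the WT saline libraries. Hadhb had 54.4, 369, 479 and 1164 CPM in the KO isoproterenol libraries, 1746, 2142, 1524 and 1738 CPM in the KO saline libraries, 1213, 1229, 1772 and 2026 CPM in the WT isoproterenol libraries and 1022, 1582, 1894 and 1689 CPM in the WT saline libraries. In KO libraries Hadhb fell (log2 fold change -2.45, SE 0.63, limma adjusted p = 0.0049) and Hadha was not called (log2 fold change -1.24, SE 0.59, limma adjusted p = 0.0947), and KO isoproterenol replicate 4 exceeded KO saline for Hadha and not for Hadhb.

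The ratio of Hadha to Hadhb was 3.78, 2.55, 3.06 and 3.11 in the KO isoproterenol libraries, 1.17, 1.32, 1.52 and 1.36 in KO saline, 2.65, 2.33, 2.31 and 2.26 in WT isoproterenol and 1.56, 1.52, 1.297 and 1.25 in WT saline. In both genotypes the isoproterenol libraries lay above the saline libraries without overlap, by 1.21 on the log2 scale in KO and 0.77 in WT. Each difference had an exact two-sided permutation p = 0.0286, the smallest that 4 against 4 libraries allow, and 0.0571 after adjustment over the 8 ratio comparisons. It was above all saline libraries in KO isoproterenol replicate 1, where both genes were low, and in replicate 4, where Hadha was above and Hadhb below KO saline. Between genotypes the ratio gave an exact two-sided p = 0.0571 under isoproterenol and p = 0.571 under saline.

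The 2 genes lie head to head, with start sites 273 bases apart, so that their promoter windows share 228 bases. This shared stretch is shown because one region lies before both genes of the ratio. The window of Hadhb (250 bases before to 50 after its start, RefSeq, GRCm38.p6, plus strand, chr5:30155003-30155302) has in capitals the bases that also lie in the window of Hadha on the minus strand.
Hadhb: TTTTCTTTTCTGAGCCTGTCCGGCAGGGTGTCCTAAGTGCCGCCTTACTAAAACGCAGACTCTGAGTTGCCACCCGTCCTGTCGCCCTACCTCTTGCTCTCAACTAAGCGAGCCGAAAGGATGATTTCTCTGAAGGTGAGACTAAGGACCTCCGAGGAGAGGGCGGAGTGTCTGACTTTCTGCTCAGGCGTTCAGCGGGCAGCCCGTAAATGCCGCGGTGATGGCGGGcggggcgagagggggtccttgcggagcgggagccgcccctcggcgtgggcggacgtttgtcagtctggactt
Of the 75-base stretches of the Hadhb transcript, 57.2% also occur in transcripts of the annotated gene Gm13910, so that its level depends on how reads with more than one origin were counted.

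Echs1, the short-chain hydratase, and Etfa, the alpha subunit of the electron transfer flavoprotein, were the 2 genes whose promoter windows held a loose form of the peroxisome proliferator response element. Windows were available for 31 of the 37 genes, 37 windows in all. The search took AGGTCA, 1 base of any kind and AGGTCA again, on either strand, with at most 2 mismatches in all, and 5.41% of these windows matched against 3.86% of all 32851 windows. The 2 windows follow (RefSeq, GRCm38.p6, minus strand, chr7:140116372-140116671 for Echs1 and chr9:55512194-55512493 for Etfa), with the match in capitals.
Echs1: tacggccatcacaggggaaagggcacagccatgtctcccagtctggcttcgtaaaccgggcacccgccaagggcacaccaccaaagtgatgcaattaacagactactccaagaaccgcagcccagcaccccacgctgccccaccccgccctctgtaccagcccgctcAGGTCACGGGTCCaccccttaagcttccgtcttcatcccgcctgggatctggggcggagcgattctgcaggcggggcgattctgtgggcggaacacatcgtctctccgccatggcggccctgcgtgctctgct
Etfa: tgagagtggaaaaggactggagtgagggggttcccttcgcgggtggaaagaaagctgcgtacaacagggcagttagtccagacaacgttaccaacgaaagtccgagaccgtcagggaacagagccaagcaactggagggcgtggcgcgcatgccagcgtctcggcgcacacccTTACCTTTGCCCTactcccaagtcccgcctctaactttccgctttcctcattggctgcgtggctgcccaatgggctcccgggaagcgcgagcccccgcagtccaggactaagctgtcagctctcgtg
The exact estrogen-related receptor element TCAAGGTCA was found in 1 window, of Acsl6, a gene whose expression was not analysed here, or 2.7% of windows against 0.423% of all windows. The cAMP response element TGACGTCA was found in 0 of 37, against 1.79% of all windows. These shares describe the windows and say nothing of binding. Echs1 had 89.6, 135, 371 and 657 CPM in KO isoproterenol libraries against 1155, 1473, 1106 and 1305 CPM in KO saline libraries. Etfa had 109, 263, 655 and 1189.5 CPM in KO isoproterenol libraries against 1842, 2357, 1725 and 1939 CPM in KO saline libraries. For both, the highest isoproterenol library was below the lowest saline library, and the KO responses were -2.43, SE 0.45 and -2.34, SE 0.51 (limma adjusted p = 0.000491 and 0.00172).

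Etfb, the beta subunit of the flavoprotein, fell as Etfa did. It had 9.54, 20.2, 35.8 and 59.1 CPM in the KO isoproterenol libraries and 148, 168, 129 and 178 CPM in the KO saline libraries. Etfb had 173, 157, 84.3 and 114 CPM in the WT isoproterenol libraries and 155, 166, 145 and 128 CPM in the WT saline libraries. The KO isoproterenol libraries lay below the other 12 and reached no more than 59.1 CPM (log2 fold change -2.61, SE 0.40, limma adjusted p = 0.000114). Etfdh, the dehydrogenase that passes these electrons to ubiquinone, had 80.8, 365, 644 and 1624 CPM in KO isoproterenol and 991, 1043, 962 and 792 CPM in KO saline libraries, with replicate 4 above and the other three below KO saline, and was not called (log2 fold change -1.17, SE 0.60, limma adjusted p = 0.12). Etfdh was higher in every WT isoproterenol library (1318 to 1990.0 CPM) than in every WT saline library (609.8 to 941 CPM), also short of a call, but called higher without KO isoproterenol replicate 1 (limma adjusted p = 0.0464) and with the 8 WT libraries alone (0.002).

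Of the enzymes that handle double bonds, Eci1 and Decr1 fell in KO libraries and Eci2 was not called. Eci1, an isomerase of the matrix, had 45.7, 139, 275 and 591 CPM in KO isoproterenol against 951, 1088, 819.9 and 1031 CPM in KO saline libraries, without overlap (log2 fold change -2.43, SE 0.51, limma adjusted p = 0.00134). Decr1, the dienoyl-CoA reductase, had 77.04, 183, 580.5 and 1233 CPM in KO isoproterenol and 896, 1236, 932 and 1074 CPM in KO saline libraries, with replicate 4 inside the saline range (log2 fold change -1.69, SE 0.58, limma adjusted p = 0.0248), a call lost without KO isoproterenol replicate 1 or 2 or KO saline replicate 2 or 4, and with the WT pairing as a block (0.052). The 8 KO libraries alone did not call Decr1 either (limma adjusted p = 0.115). In WT libraries Decr1 had 1761, 1735, 1981 and 2245 CPM under isoproterenol against 789, 1031, 1010.1 and 885 CPM under saline, and Eci2, an isomerase of mitochondria and peroxisomes, 230.0 to 276 CPM against 121 to 152 CPM. Neither pair overlapped and neither was called, but with the 8 WT libraries alone both were called higher (limma adjusted p = 0.000246 for Decr1 and 0.00017 for Eci2), and Eci2 also without KO isoproterenol replicate 1 (0.00246) or 4 (0.0377). Meanwhile the KO response minus the WT response was called lower for Eci1, Eci2 and Decr1, though 9 fits that left out 1 library lost the call for Eci2 and 2 that for Decr1, and the WT pairing as a block lost both (0.0725 and 0.0583).

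Among the thioesterases, which undo activation, 2 of 5 fell in KO libraries, beside 24.8% of all genes, and Acot11 had the largest difference of responses among the 36 genes. Acot11, a thioesterase abundant in brown fat, had 12.5, 34.9, 32.1 and 102 CPM in the KO isoproterenol libraries and 171, 251, 139 and 201 CPM in the KO saline libraries. Acot11 had 363, 187, 531 and 671 CPM in the WT isoproterenol libraries and 63.6, 144, 197 and 179 CPM in the WT saline libraries. All KO isoproterenol libraries were below all KO saline and all WT isoproterenol libraries, and WT isoproterenol replicate 2 lay within the WT saline range. The KO response was a log2 fold change -2.43, SE 0.54, limma adjusted p = 0.00184, the WT response was not called (log2 fold change 1.56, SE 0.54, limma adjusted p = 0.0593, and called with 0.0482 in the 8 WT libraries alone and 0.0195 or 0.0199 without KO isoproterenol replicate 1 or 4), and their difference was -3.98, SE 0.76 with limma adjusted p = 0.0032.

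Acot13 had 18.7, 35.7, 50.7 and 76.9 CPM in KO isoproterenol against 159, 205, 167 and 192 CPM in KO saline libraries, with no overlap (log2 fold change -2.16, SE 0.29, limma adjusted p = 4.19e-05). Acot9 stayed within 55.0 to 103.7 CPM in all 16 libraries. Its KO and WT responses were not called in the fit over 16 libraries, but its difference of responses was, at -0.62, SE 0.18 with limma adjusted p = 0.0207. WT isoproterenol libraries (83.8 to 103.7 CPM) lay above WT saline libraries (68.6 to 74.7 CPM). With the 8 WT libraries alone Acot9 was called higher in WT (limma adjusted p = 0.0155).

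Acot1 and Acot2 are neighbours on chromosome 12 and near-copies, one of the cytosol and one of mitochondria, both known as targets of Ppara. Acot1 had 3.73, 30.9, 24.2 and 68.5 CPM in the KO isoproterenol libraries and 5.49, 0.125, 28.5 and 2.58 CPM in the KO saline libraries. Acot1 had 12.4, 22.5, 16.9 and 19.1 CPM in the WT isoproterenol libraries and 0.661, 2.75, 2.19 and 2.12 CPM in the WT saline libraries. WT isoproterenol and WT saline did not overlap, and the KO saline libraries differed by a larger fold among themselves than those of any other group. That fold rests on KO saline replicate 2, where Acot1 had 1 read. Acot2 had 6.54, 149, 84.6 and 394 CPM in the KO isoproterenol libraries and 199, 63.7, 284 and 136 CPM in the KO saline libraries. Acot2 had 79.5, 87.5, 69.6 and 96.2 CPM in the WT isoproterenol libraries and 32.1, 68.5, 44.9 and 44.9 CPM in the WT saline libraries. KO saline replicates 1 and 3 were the highest of their group for both genes, and neither gene was called in any comparison of the fit over 16 libraries (log2 fold change 3.34, SE 1.21 for the WT response of Acot1, limma adjusted p = 0.0732). With the 8 WT libraries alone both were called higher in WT (limma adjusted p = 0.000278 for Acot1 and 0.00911 for Acot2). Without KO isoproterenol replicate 1 Acot1 was called higher in KO (log2 fold change 3.80, limma adjusted p = 0.0293), a fold that includes KO saline replicate 2 at 1 read. Of the 75-base stretches of their transcripts, 19.7% for Acot1 and 20.5% for Acot2 occur in the other, so reads could be split between them and both levels are uncertain. Their promoter windows are set side by side because the transcripts share such stretches while the windows differ, at 51.9% identical positions in a global alignment (RefSeq, GRCm38.p6, plus strand, chr12:84009252-84009551 for Acot1 and chr12:83987611-83987910 for Acot2).
Acot1: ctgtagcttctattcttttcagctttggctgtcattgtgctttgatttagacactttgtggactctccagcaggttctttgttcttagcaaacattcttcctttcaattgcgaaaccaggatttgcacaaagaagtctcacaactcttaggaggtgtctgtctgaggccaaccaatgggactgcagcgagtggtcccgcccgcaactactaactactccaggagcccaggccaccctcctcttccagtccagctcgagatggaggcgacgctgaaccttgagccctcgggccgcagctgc
Acot2: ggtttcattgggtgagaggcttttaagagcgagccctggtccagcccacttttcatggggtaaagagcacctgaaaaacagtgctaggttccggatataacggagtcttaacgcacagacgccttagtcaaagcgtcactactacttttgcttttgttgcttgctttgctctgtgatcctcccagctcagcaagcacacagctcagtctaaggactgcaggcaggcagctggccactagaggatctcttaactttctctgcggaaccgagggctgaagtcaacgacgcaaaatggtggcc
Neither window held any of the 3 motifs.

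Levels compared between genes were set per kilobase of the transcript with the longest coding sequence in GENCODE. In WT saline libraries the highest were Acaa2 at 2314 ± 292, Acadl at 1597 ± 246, Etfa at 1302 ± 173, Acadm at 1258 ± 226 and Hadh at 1172 ± 145 CPM per kilobase (SD, n = 4), and neighbours from Etfa to Hadh differed by less than their spread. In KO isoproterenol libraries the order was Acadl at 656 ± 647, Acsl1 at 630.3 ± 544 and Acadm at 539 ± 563, all within their spread, and Cpt1a stood at rank 23 of 36, against rank 33 in KO saline. At the low end of WT saline stood Cpt1b, Cpt1a, Acsl4, Acsl3 and Acot1. The shared 75-base stretches make 8 genes uncertain in level, with over 5% found in other genes: Cpt1b (in the read-through gene Gm44502), Etfb (66.3%, in Gm45233), Hadhb, Acot1, Acot2, Acad10 (14.6%), Acad9 (11.7%) and Acot9 (7.15%).

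Genes of neighbouring pathways were also mostly lower in KO libraries. Of 34 further genes of uptake, branched-chain and propionyl-CoA oxidation, ketone bodies and other acyl-CoA synthetases and thioesterases, 33 were measured, and in KO libraries under isoproterenol 20 were lower and 2 higher, with a median log2 fold change of -1.50, beside 24.8% and 23.8% of all genes. Without KO isoproterenol replicate 1 they were 17 and 4, beside 23.3% and 22.0% of all genes. Under isoproterenol 21 were lower in KO than in WT libraries and 0 higher, beside 23.1% and 21.6% of all genes, and the difference of responses was lower for 16 and higher for 0, beside 13.8% and 10.9%. Slc25a20, the carnitine-acylcarnitine carrier that links the 2 transferases, had 43.9, 203, 347 and 864 CPM in KO isoproterenol and 620.0, 702, 628 and 621 CPM in KO saline libraries (log2 fold change -1.50, SE 0.59, limma adjusted p = 0.0459), with replicate 4 above all saline libraries. Pccb, a subunit of propionyl-CoA carboxylase, had 38.7, 97.2, 154 and 285 CPM in KO isoproterenol and 862, 827, 773 and 759 CPM in KO saline libraries, with no overlap (log2 fold change -2.83, SE 0.41, limma adjusted p = 7.09e-05). Cd36, the fatty acid receptor at the cell surface, had 2171, 4442, 5012 and 7146 CPM in KO isoproterenol and 3774, 3246, 3699.6 and 3313 CPM in KO saline libraries and was not called. Bdh1, a ketone body enzyme, was one of the 2 higher genes, at 0.975, 13.6, 2.95 and 6.54 CPM in KO isoproterenol against 0.177, 0.541, 0.399 and 0.517 CPM in KO saline libraries (log2 fold change 3.42, SE 0.73, limma adjusted p = 0.00144). Its KO saline levels rest on few reads, as 3 reads were worth 0.212 to 0.345 CPM in those libraries. In WT libraries 3 of the 33 were higher and 1 lower, near the 7.6% and 8.98% of all genes, and with Acot5 at 0 reads in all 4 WT saline libraries no fold is given for it.

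Of 19 regulators of these genes, 18 were measured, and in KO libraries under isoproterenol 9 were lower and 0 higher, beside 24.8% and 23.8% of all genes. In WT libraries 0 were lower and 0 higher in the limma fit, beside 8.98% and 7.6% of all genes, and 3 had an unadjusted p under 0.05. The 8 WT libraries alone gave 4 higher and 3 lower, near the 16.3% and 15.8% of all genes. Ppara, the fatty acid sensing nuclear receptor, had 2.31, 40.3, 23.1 and 90.9 CPM in the KO isoproterenol libraries and 305, 323, 188 and 138 CPM in the KO saline libraries. Ppara had 87.6, 92.4, 173 and 167 CPM in the WT isoproterenol libraries and 178, 252, 337 and 335 CPM in the WT saline libraries. KO isoproterenol libraries were below KO saline without overlap (log2 fold change -3.42, SE 0.77, limma adjusted p = 0.00209). Of its coactivators, Ppargc1b had 2.497, 23.01, 27.7 and 65.8 CPM in KO isoproterenol and 137, 140.1, 83.3 and 67.3 CPM in KO saline libraries (log2 fold change -2.50, SE 0.67, limma adjusted p = 0.00657), while Ppargc1a had 3.401, 114, 137 and 341 CPM in KO isoproterenol and 155, 50.6, 132 and 56.7 CPM in KO saline libraries and was not called. Esrra, the estrogen-related receptor alpha, had 49.2, 68.6, 109 and 158 CPM in KO isoproterenol and 229, 294, 224 and 274 CPM in KO saline libraries (log2 fold change -1.54, SE 0.26, limma adjusted p = 0.000267). Sirt3, a mitochondrial deacylase, had 7.64, 12.4, 20.04 and 38.1 CPM in KO isoproterenol and 92.9, 111, 87.04 and 96.3 CPM in KO saline libraries, with no overlap (log2 fold change -2.56, SE 0.33, limma adjusted p = 2.99e-05).

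Marker lists of cell types differed among the KO isoproterenol libraries, in differing orders. The mean centred log2 CPM of the 36 genes was -2.77, -1.16, -0.59 and 0.52 in KO isoproterenol replicates 1 to 4, and that of 11 pan-adipocyte markers was -1.772, -1.004, 0.105 and 0.045. In these libraries brown adipocyte markers gave -3.96, -0.77, -0.25 and 0.85, and macrophage markers 3.33, 1.74, 3.01 and 0.91. Skeletal muscle markers gave -4.07, 1.17, 0.97 and -1.82 and lymphocyte markers 0.19, -1.73, 0.19 and -1.61, while endothelial markers stayed between 0.004 and 0.211. In replicates 3 and 4 the pan-adipocyte values were close together, while those of the oxidation genes, the brown adipocyte markers and the macrophage markers were not. Adipoq, the adipocyte hormone, had 229, 201, 1076 and 631 CPM in KO isoproterenol libraries against 1388, 1866, 1487 and 1677 CPM in KO saline libraries. In KO libraries under isoproterenol 12 of 12 macrophage markers and 6 of 7 neutrophil markers rose, and 7 of 11 brown adipocyte markers fell. Of 11 pan-adipocyte markers 6 fell and 1 rose. Beside these marker counts, 23.8% of all genes were called higher and 24.8% lower in that comparison. Summed CPM of the brown adipocyte markers spanned 178 to 7446 in KO isoproterenol against 6495 to 7598 in KO saline libraries, and that of the pan-adipocyte markers 6642 to 45996 against 24905 to 28061. Summed CPM of the 12 macrophage markers spanned 1365 to 11861 in KO isoproterenol against 374 to 694 in KO saline libraries, and no marker of these 3 lists was at 0 reads in these libraries. The difference between the member mean and the pan-adipocyte mean was -0.996, -0.158, -0.691 and 0.472 in KO isoproterenol against 0.13, -0.30, 0.36 and -0.03 in KO saline libraries, which overlapped. In WT isoproterenol libraries it was 0.37, 0.35, 0.66 and 0.75 against -0.49, -0.20, -0.09 and -0.13 in WT saline libraries, which did not. Brown adipocyte markers were also higher there without overlap, at 0.455, 0.762, 1.018 and 1.255 in WT isoproterenol and -0.640, -0.172, -0.203 and 0.033 in WT saline libraries. The member means beside them were 0.467, 0.440, 0.684 and 0.867 against -0.221, 0.269, 0.209 and 0.132. The part of cell makeup in the member results was not tested.

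**Figure D5:**
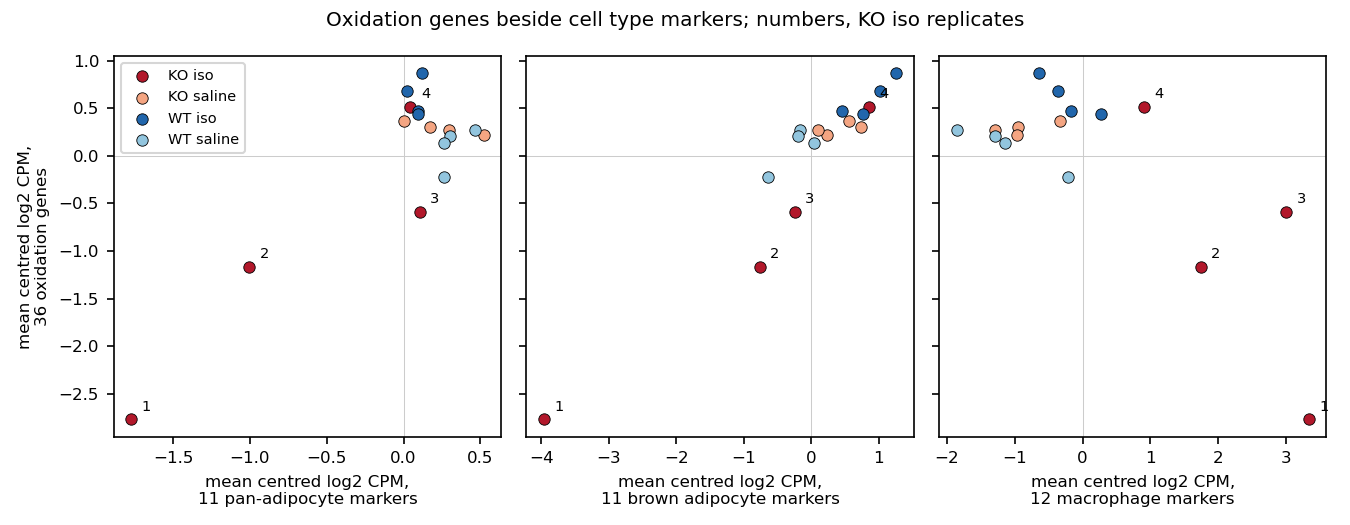
Mean centred log2 CPM of the 36 oxidation genes (vertical) against that of 11 pan-adipocyte, 11 brown adipocyte and 12 macrophage markers (horizontal, left to right) in the 16 libraries, with KO isoproterenol replicates numbered. KO isoproterenol replicate 1 is lowest for the oxidation genes and both adipocyte lists and highest for macrophage markers, and replicate 4 lies inside the range of the other 12 libraries for the oxidation genes and both adipocyte lists.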

How the data were processed

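The deposited tables held, per the file headers and the values, log2 CPM, that is log2 read counts scaled to library size, for 15350 genes in each of 16 libraries. The submitters' processing notes name STAR, limma and the build mm39 without versions, and the protocols describe a stranded poly(A) kit with single reads of 75 bases. Subtracting the 0.5 read prior gave whole reads for 100% of the values within 1e-06, and the authors' library sizes were 0.854 to 1.25 times the read totals. Groups follow the sample titles. For 3 KO saline libraries the replicate number in the file header differs from the title.

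Gene names for 15320 of the genes came from GENCODE M21, and sequences from RefSeq tables of GRCm38.p6. Group means over all 16 libraries were fitted with limma 3.58.1 in R 4.3.3 with a mean-variance trend and robust moderation, Benjamini-Hochberg adjusted over all 15350 genes. Python 3.11.15 was used for the rest. Same-numbered WT libraries had deviations correlated at 0.21, 0.42, 0.23 and 0.54 which the labels do not explain, so a fit with that pairing as a block was run as an alternative. The fit reported has no block. The named genes are all 36 measured members. Members and lists were chosen with earlier results of these data known.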

Additional observations from a re-analysis of the deposited data

Results flagged for a closer look

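In 3 of 144 combinations of gene and group, 1 library stood apart from the other 3 of its group by the gap relative to the group's range, where chance would give 7.2, or 1 in 20. Acadvl was highest in KO saline replicate 2, at 1984 CPM. Acsl4 was lowest in WT saline replicate 2, at 27.9 CPM. Acad9 was lowest in WT saline replicate 1, at 45.1 CPM.

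For 20 genes the response to isoproterenol differed between genotypes in the limma interaction test, given here as the KO response minus the WT response in log2. It was 2.09 for Cpt1a and 1.24 for Acsl4. Among the other activating and carnitine enzymes it was -2.51 for Acsl5 and -2.35 for Cpt2. Among the dehydrogenases it was -3.10 for Acadm, -2.47 for Acadl, -2.38 for Acad11, -2.07 for Acads and -1.50 for Acad9. From hydration to thiolysis it was -3.00 for Acaa2, -2.97 for Hadh and -2.48 for Echs1. For the double-bond enzymes it was -2.75 for Decr1, -2.59 for Eci1 and -1.58 for Eci2. For the flavoprotein it was -2.49 for Etfa and -2.40 for Etfb. For the thioesterases it was -3.98 for Acot11, -1.83 for Acot13 and -0.62 for Acot9. The calls for Acad11, Acadl, Acads, Cpt2, Decr1 and Eci2 were each lost in at least 1 fit that left out a library. With the WT pairing as a block 9 of the 18 lower differences were no longer called: Cpt2, Acadl, Acadm, Acads, Acad11, Hadh, Eci2, Decr1 and Etfa, at limma adjusted p = 0.0519 (Hadh) to 0.0823 (Acadl). Those of Acsl5, Acad9, Echs1, Acaa2, Eci1, Etfb, Acot9, Acot11 and Acot13, and the 2 higher ones, were still called.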

How the results depend on the processing

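The count of oxidation genes called higher in WT under isoproterenol, 2 in the fit reported, was 19 with the 8 WT libraries alone, 14 with array weights, 13 without KO isoproterenol replicates 1 and 4, 4 with the replicate block by header number, 3 with that by title number, 1 with the WT replicate block, and 1 to 8 leaving out 1 library. The 1 called lower became 3 with the 8 libraries, 2 with array weights, 2 without the KO pair, 0 with voom weights, 0 with the WT replicate block, and 0 to 2 leaving out 1 library. In KO, 19 lower became 12 with the 8 libraries and 16 to 28 leaving out 1, and 2 higher became 2 to 4. Between genotypes under saline, 0 higher became 1 with array weights. Under isoproterenol, 28 lower became 16 with the 8 libraries and 23 to 31 leaving out 1. The difference of responses, 18 lower, became 30 with array weights, 8 with voom weights, 9 with the WT replicate block, 29 without the KO pair, and 12 to 30 leaving out 1. No share of all genes stands beside these counts, so a change in them may be one of the whole table.

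No estimate changed sign where it was called. Over the oxidation genes, comparisons and alternative settings, 4516 gene values kept their side of the threshold, 144 passed it only in the alternative and 164 only in the fit reported. The header numbers, the WT pairing and the fit without KO isoproterenol replicates 1 and 4 were chosen after seeing the data. Outside the WT pair, same-numbered libraries did not all deviate together, with correlations of 0.04, 0.15, 0.24 and 0.03 between the KO groups. The cause of these shifts was not tested.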
